A study of Oryza sativa with 32 samples.

Results

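The libraries compared here are the panicle libraries with the highest and the lowest level of the transcript MADS63 (OS06G0223300) at each of 8 times of day, which gives 8 MADS63-high and 8 MADS63-low libraries, 16 of the 32 in the series. They were chosen by the deposited, normalised level of that single transcript. MADS63 encodes a MADS-box transcription factor of the pollen-expressed MIKC* class. All plants were of the indica rice variety IR64, untreated, grown in a field at IRRI in the Philippines in the dry season. Panicles were taken at 50% flowering at 8 points of the day: dawn, dusk, and 3.5, 7, 10.5, 14, 17.5 and 21 h past dawn. MADS63-high and MADS63-low libraries therefore share genotype, field, the 50% flowering label and, within a pair, time of day. The labels give no stage for single florets. Nothing in the labels ties the 4 replicates of a time to separate plants, so p-values measure only the spread between these libraries, which may be technical. The classes were made from a measured transcript and are not a treatment, and MADS63 itself was left out of every test. The tests below ask which other transcripts differed between these libraries, paired by time.

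Rice flowers in small florets, each with a carpel that holds the ovule, a ring of stamens, and scale-like lodicules that swell to open the floret. In the anther, meiosis comes first, the tapetum then feeds the microspores and supplies their wall, and pollen matures last, storing starch and transcripts for growth of the pollen tube. Florets of one panicle open over several days, so that anthers before and after pollen shedding stand side by side. The libraries were made from RNA of whole panicles. In such bulk samples, fewer cells of a type and less RNA per cell cannot be told apart.

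MADS63 lay at 2.02 to 22.4 deposited CPM (the count divided by the library total in M, for mega) in the MADS63-high libraries, with a median of 3.58 CPM, and at 0 to 0.812 CPM in the MADS63-low libraries, with a median of 0.201 CPM. These levels chose the libraries and are a description. By time, from dawn to 21 h, the MADS63-high libraries held 2.24, 5.09, 4.54, 22.4, 2.61, 12.1, 2.02 and 2.54 CPM, and the MADS63-low libraries 0.174, 0.699, 0.812, 0.211, 0.192, 0.558, 0 and 0.0864 CPM. The ratio within a time was smallest at 7 h, and the highest level of all was at 10.5 h. The level rested on 23 to 428 counts in the MADS63-high libraries and on 0 to 18 counts in the MADS63-low ones, where a 0 allows up to 3 counts.

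**Figure D1:**
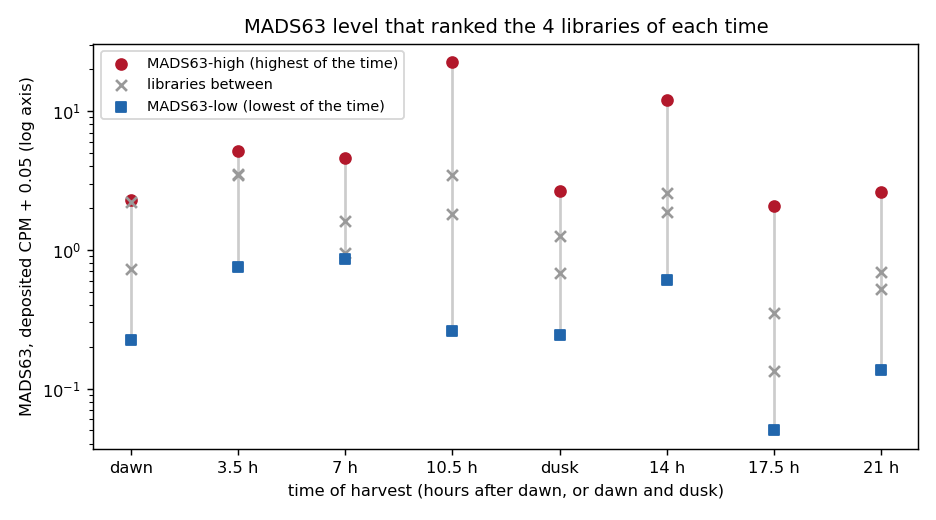
MADS63 in all 32 libraries by time of harvest, in deposited CPM with 0.05 added so that 0 can be drawn on the log axis. Circles mark the highest library of each time, squares the lowest and crosses the libraries between; the circles run from 2.02 to 22.4 CPM and the squares from 0 to 0.812 CPM, and at dawn the highest library and the next one nearly coincide.

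The line between chosen and unchosen libraries was thin at several times. At dawn the highest library had 2.24 CPM and the next one 2.16 CPM, and at 7 h the lowest had 0.812 CPM and the next one 0.896 CPM. The exact Poisson 95% intervals of the counts, which cover counting error only, overlapped between the chosen library and the next in rank for 2 of 8 high and 6 of 8 low libraries. Totals were 11.4 to 31.0 M counts in MADS63-high libraries and 10.8 to 23.7 M in MADS63-low libraries, within the 10.8 to 43.9 M of the whole series. The scaling factors of the TMM method (trimmed mean of M values) ran from 0.830 to 1.11 in MADS63-high libraries and from 0.940 to 1.15 in MADS63-low libraries. Levels below are TMM-scaled CPM, and differences are log2, high minus low, from edgeR's quasi-likelihood fit over 8 pairs with SE and Benjamini-Hochberg adjusted p. That fit gives no SE, so it was derived as the absolute log2 difference over the square root of the test's F value.

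Across the 26639 genes tested, 6405 passed an adjusted p of 0.05 (24.0%), 3531 of them higher (13.3%) and 2874 lower (10.8%) in MADS63-high libraries. The higher ones differed by more. At least 2-fold differences were seen in 1890 genes called higher and 993 called lower, and at least 8-fold differences in 814 higher and 71 lower. All 8 pairs pointed one way, at a mean of at least 1 CPM, for 2233 genes called higher and 1512 called lower. The 8 MADS63-high libraries lay entirely above the 8 MADS63-low ones for 527 genes called higher, and entirely below them for 43 called lower.

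These counts depend on the exact libraries and on the scaling. With the next-ranked library in place of the 2 high and 6 low ones whose counts overlapped it, an alternative chosen after seeing the data, edgeR called 5 genes higher and 0 lower, while 4625 genes had an unadjusted p under 0.05 (9838 in the comparison as made). Without the 14 h pair 1623 genes were called lower, and without the 21 h pair 1584. With no scaling beyond the library total, 27.3% of the calls were higher in MADS63-high libraries, against 55.1% with TMM scaling, and the median of all genes was -0.22 on the log2 scale, against -0.00 with TMM. No listed gene called with TMM changed sign under that setting.

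Mature pollen transcripts had the highest median difference of the lists, and all 3 members in use were higher in MADS63-high libraries in 8 of 8 pairs. Their median difference was 4.06 on the log2 scale, beside -0.00 for all genes tested, of which 13.3% were called higher. The list holds only the 3 of 12 written members whose names could be checked, and the pollen label rests on these 3 and on MADS63. EXPB9, a beta-expansin of the grass pollen allergen family that loosens cell walls, had 1893, 2769, 1258, 3822, 2783, 3412, 655 and 1029 CPM in MADS63-high libraries from dawn to 21 h, against 14.6, 720.5, 384, 118, 374, 217, 16.4 and 40.1 CPM in MADS63-low libraries. Every MADS63-high library exceeded its own partner, and across times the classes overlapped narrowly, at the 655 CPM of 17.5 h and the 720.5 CPM of 3.5 h. The log2 difference was 4.06 ± 0.62 (SE, adjusted p = 0.00153). Expansins of this family share sequence, so that their counts are uncertain where reads map to several of them.

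MST5, a monosaccharide transporter known from anthers, had 4.87, 9.48 and 40.6 CPM (lowest, median and highest) in MADS63-high libraries, against 0.0543, 0.702 and 2.61 CPM in MADS63-low libraries. The classes did not overlap, and the log2 difference was 4.06 ± 0.42 (adjusted p = 0.000796). CPK25, a calcium-dependent protein kinase, had 14.2, 49.9 and 146 CPM in MADS63-high libraries and 0.617, 5.59 and 15.0 CPM in MADS63-low libraries, a difference of 3.81 ± 0.50 (adjusted p = 0.000829). CPK25 has a near-identical copy, so its counts are uncertain. The 3 genes together summed to 677 to 3977 CPM (median 2395) in MADS63-high libraries and to 15.4 to 734 CPM (median 174) in MADS63-low libraries. By deposited CPM, the MADS63-high library was also the highest of its 4 for EXPB9 at 7 of 8 times and for CPK25 at 5. The MADS63-low library was the lowest at 7 of 8 times for both genes.

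**Figure D2:**
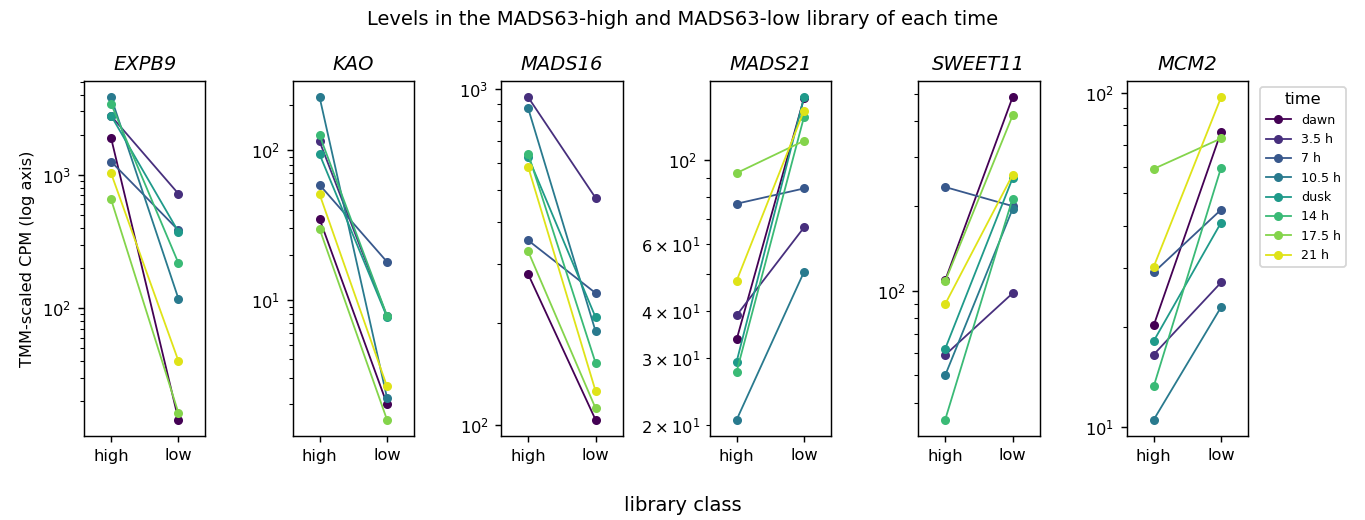
TMM-scaled CPM (log axes, a scale for each gene) of 6 genes in the MADS63-high (left) and MADS63-low (right) library of each time, with a line joining the pair. EXPB9, KAO and MADS16 were higher in the MADS63-high library of all 8 pairs, MADS21 and MCM2 were lower in all 8, and SWEET11 was lower in 7, with the 7 h pair against.

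Of the tapetum and pollen wall list, 4 of 8 tested members were higher, none was lower, and the list median was 1.95. Among all genes tested, 13.3% were called higher and 10.8% lower. TDR, a bHLH factor needed for tapetum breakdown, had 3.23, 13.2 and 47.9 CPM in MADS63-high libraries and 0.0771, 0.790 and 5.52 CPM in MADS63-low libraries, a difference of 3.64 ± 0.50 (adjusted p = 0.000979). RAFTIN1, an anther protein of the tapetum, differed by 4.46 ± 0.77 (adjusted p = 0.00278) at low levels, with medians of 1.53 CPM in MADS63-high and 0.0214 CPM in MADS63-low libraries. TIP2, the bHLH partner of TDR and not an aquaporin, differed by 2.89 ± 0.71 (adjusted p = 0.0149), and GAMYB, a gibberellin-regulated MYB factor, by 0.59 ± 0.18 (adjusted p = 0.0418). Both sets of 8 libraries overlapped for each of these 4 genes.

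The list did not move as a whole. UDT1, a bHLH factor of early tapetum development, had a median of 2.86 CPM in MADS63-high and 3.67 CPM in MADS63-low libraries (log2 difference -0.11, adjusted p = 0.772). The cytochrome P450 CYP703A3, which makes pollen wall precursors, had medians of 1.51 CPM in MADS63-high and 1.49 CPM in MADS63-low libraries (adjusted p = 0.464). The bHLH factor EAT1 (1.03, adjusted p = 0.467) and the lipid transfer protein C6 (2.86, adjusted p = 0.0696) did not pass. PTC1 and CP1 were too low to test, with at most 2 and 6 counts in any of the 16 libraries.

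Of 11 meiosis and early anther genes, 6 were lower, none was higher and 5 were not called, with a median of -0.56. Among all genes tested, 10.8% were called lower. PAIR1, PAIR3 and CRC1 act in pairing and synapsis of homologous chromosomes. CRC1 had 0.858, 2.13 and 3.72 CPM in MADS63-high libraries and 2.23, 3.70 and 6.79 CPM in MADS63-low libraries, lower in 8 of 8 pairs (-0.91 ± 0.20, adjusted p = 0.00805). PAIR1 differed by -1.18 ± 0.32 (adjusted p = 0.0242) and PAIR3 by -0.84 ± 0.22 (adjusted p = 0.0216), each lower in 7 of 8 pairs. The other 3 called were the recombinase gene DMC1A, the receptor kinase gene MSP1, which limits the number of sporocytes, and PAIR2, at differences of -0.76, -0.56 and -0.55. DMC1A has a close paralog, so its counts are uncertain. SPO11-1, the gene of the enzyme that starts recombination, did not pass (0.19, adjusted p = 0.442). Neither did MEL1 (0.39, adjusted p = 0.382), which was higher in 4 pairs and lower in 4. TDL1A, MER3 and HEI10, at -0.95, -0.14 and -0.11, were not called either. PAIR1 and PAIR3 missed the threshold without the dawn pair (adjusted p = 0.0549 for PAIR1 and 0.0529 for PAIR3) and without the 21 h pair (0.0724 for PAIR1 and 0.0625 for PAIR3). With either pair left out, 3 members of the list were called lower. PAIR1 also missed it without the 14 h pair (adjusted p = 0.0708).

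**Figure D3:**
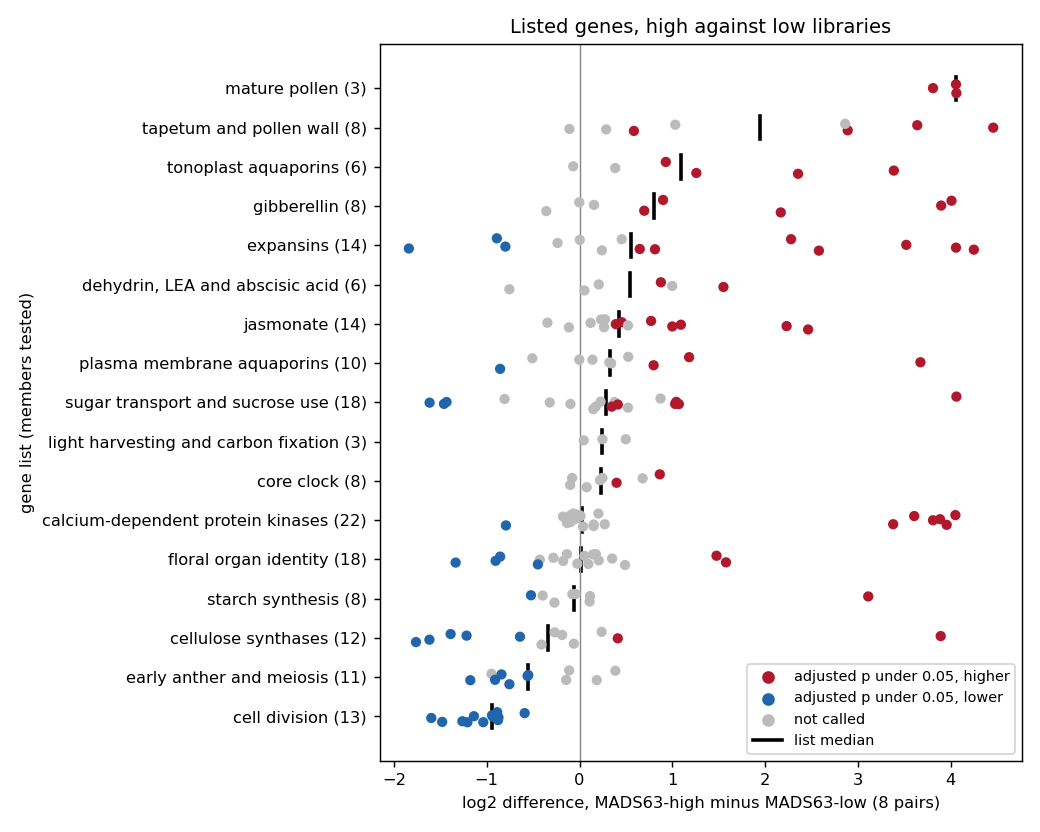
Log2 difference between MADS63-high and MADS63-low libraries for each tested member of 17 gene lists, ordered by list median (bar); the number of tested members follows each list name. Red and blue points passed an adjusted p of 0.05 as higher or lower and grey ones did not; mature pollen lies farthest right at a median of 4.06 and cell division farthest left at -0.94.

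Cell division genes were lower throughout: 13 of 13 tested members passed, at differences of -1.60 to -0.59 and a median of -0.94, and 12 were lower in all 8 pairs. Over all genes tested, 10.8% were called lower, and 1811 of 26639 were lower in all 8 pairs. The mitotic cyclin gene CYCB2-2 had 3.80, 11.4 and 25.9 CPM in MADS63-high libraries, against 21.2, 29.3 and 47.1 CPM in MADS63-low libraries (-1.60 ± 0.29, adjusted p = 0.00358). CYCB2-1 differed by -1.48 ± 0.26 (adjusted p = 0.00327) and CDKB2-1, a kinase gene of the mitotic phases, by -1.26 ± 0.25 (adjusted p = 0.00589). The replication genes followed, with -1.21 for MCM2, -1.14 for ORC1 and -0.93 for PCNA. Summed over the list, the level was 141 to 512 CPM (median 242) in MADS63-high libraries and 318 to 764 CPM (median 552) in MADS63-low libraries. The classes overlapped across times and no pair had the higher sum in its MADS63-high library.

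Among 18 floral organ identity genes, 2 were higher and 4 lower, with a median of 0.01, beside 13.3% higher and 10.8% lower of all genes tested. The 2 higher were B-class genes, which specify stamens and lodicules. MADS16 had 281, 607 and 945 CPM in MADS63-high libraries and 103, 171 and 474 CPM in MADS63-low libraries, higher in 8 of 8 pairs (1.58 ± 0.20, adjusted p = 0.000798). MADS2, which acts chiefly in lodicules, had 194, 368 and 486 CPM in MADS63-high libraries and 76.6, 109 and 239 CPM in MADS63-low libraries (1.48 ± 0.19, adjusted p = 0.000798). For both genes the classes overlapped across times. MADS4, the other B-class gene, was at medians of 72.1 CPM in MADS63-high and 49.6 CPM in MADS63-low libraries and did not pass (0.49, adjusted p = 0.171).

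The genes called lower included the ovule genes MADS21 and MADS13 and the C-class gene MADS58, which acts in carpel and meristem. MADS58 and MADS3 had been written down as the stamen markers, and neither was called higher. MADS21 had 20.6, 36.3 and 92.6 CPM in MADS63-high libraries, against 50.7, 122 and 147 CPM in MADS63-low libraries (-1.33 ± 0.27, adjusted p = 0.0062). MADS58 differed by -0.90 ± 0.19 (adjusted p = 0.00665) and MADS13 by -0.85 ± 0.15 (adjusted p = 0.00319), and all 3 were lower in 8 of 8 pairs. MADS8, an E-class gene of the inner floral whorls, differed by -0.45 ± 0.14 (adjusted p = 0.0411). MADS3, the other C-class gene and a stamen marker, did not pass (0.18, adjusted p = 0.528), nor did the carpel gene DL (-0.28, adjusted p = 0.252) or the A- and E-class genes MADS14, MADS15 and MADS1 (-0.02, 0.10 and 0.21). MADS2, MADS16, MADS13, MADS21, MADS58 and the cell division list thus differed between the classes besides the pollen genes, and their part in the other results was not tested.

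Calcium-dependent protein kinases read calcium signals, which in pollen steer tube growth. This list, like those of expansins, cellulose synthases and tonoplast aquaporins, was added after the data had been seen. Of 22 kinases, 6 were higher, 1 was lower and 15 were not called, with a median of 0.02, while 24.0% of all genes tested were called. The 6 higher ones, CPK22, CPK6, CPK2, CPK25, CPK14 and CPK21, differed by 3.38 to 4.05 and each was higher in 8 of 8 pairs. CPK2 had 296, 1164 and 1533 CPM in MADS63-high libraries and 7.17, 69.9 and 456 CPM in MADS63-low libraries (3.88 ± 0.62, adjusted p = 0.00198). CPK22 differed by 4.05 ± 0.66 (adjusted p = 0.00211) and CPK6 by 3.96 ± 0.53 (adjusted p = 0.000904). CPK14 did not overlap between classes, with 25.2 to 156 CPM in MADS63-high libraries and 0.815 to 23.1 CPM in MADS63-low libraries. The kinase called lower was CPK23 (-0.79, adjusted p = 0.00803), and the other 15 lay between -0.18 and 0.27.

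Both cell wall families held calls in both directions. Expansins, which loosen walls, were higher in 7 and lower in 3 of 14 tested members, with a median of 0.55, where 13.3% of all genes were higher and 10.8% lower. EXPB2 had 4.02, 13.7 and 32.9 CPM in MADS63-high libraries and 0.0771, 0.280 and 10.8 CPM in MADS63-low libraries (4.25 ± 0.64, adjusted p = 0.00147). EXPA1 differed by 3.52 ± 0.70 (adjusted p = 0.00566), and EXPB7 was the farthest below 0 (-1.84 ± 0.34, adjusted p = 0.00416). Of 12 cellulose synthase and related genes, 2 were higher and 5 lower (24.0% of all genes called), with a median of -0.34. The cellulose synthase-like gene CSLD5 had 18.0, 40.0 and 94.3 CPM in MADS63-high libraries, above all MADS63-low libraries at 0.272, 2.89 and 12.4 CPM (3.89 ± 0.59, adjusted p = 0.00146).

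Its relative CSLD4 was lower in 8 of 8 pairs, with 5.02, 16.0 and 48.0 CPM in MADS63-high and 31.6, 55.3 and 67.2 CPM in MADS63-low libraries (-1.76 ± 0.34, adjusted p = 0.00476). All 3 subunit genes of secondary wall cellulose synthesis were lower, CESA7 by -1.62 ± 0.41 (adjusted p = 0.0166), CESA4 by -1.39 ± 0.29 (adjusted p = 0.00759) and CESA9 by -1.22 ± 0.33 (adjusted p = 0.0239). CESA3, of primary walls, was higher by 0.41 (adjusted p = 0.0232). Without the 14 h or the 21 h pair, 3 members of this list were called lower and 1 higher.

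Gibberellin genes, whose hormone is needed for pollen development in rice, were higher in 5 of 8 members, with none lower and a median of 0.80, where 13.3% of all genes were higher. KAO, which makes the first gibberellins from kaurenoic acid, had 29.7, 76.1 and 226 CPM in MADS63-high libraries and 1.58, 5.15 and 17.9 CPM in MADS63-low libraries, with no overlap (4.01 ± 0.44, adjusted p = 0.000796). GA20OX3, an oxidase of the late steps, had 22.6, 79.9 and 245 CPM in MADS63-high and 0.924, 3.69 and 33.8 CPM in MADS63-low libraries (3.90 ± 0.56, adjusted p = 0.00119). CPS1, of the first step, had 37.8, 74.9 and 128 CPM in MADS63-high and 8.87, 15.2 and 41.5 CPM in MADS63-low libraries (2.17 ± 0.25, adjusted p = 0.000796). KO2, of a middle step, differed by 0.70 (adjusted p = 0.00268), and the gibberellin repressor SLR1 by 0.90 (adjusted p = 0.00415). The receptor gene GID1 had medians of 31.8 CPM in MADS63-high and 33.0 CPM in MADS63-low libraries (-0.00 ± 0.13), and the synthesis genes GA20OX2, the oxidase of semi-dwarf rice, and KS1 did not pass (-0.36, adjusted p = 0.428, and 0.16, adjusted p = 0.322).

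Jasmonate genes were higher in 7 of 14 members and lower in none, with a median of 0.42 and the same 13.3% higher among all genes. Jasmonate is needed for floret opening and anther dehiscence in rice. JAR1, which makes the active isoleucine conjugate, had 52.9, 115 and 192 CPM in MADS63-high libraries and 9.58, 18.7 and 169 CPM in MADS63-low libraries (2.23 ± 0.41, adjusted p = 0.00395). Its lowest pair difference was at 3.5 h, and 1 MADS63-low library lay well inside the MADS63-high range. The repressor genes TIFY11A (2.46 ± 0.48, adjusted p = 0.00492) and TIFY11B (1.09 ± 0.24, adjusted p = 0.00842) were also higher. COI2, a jasmonate receptor gene, had 96.6, 154 and 239 CPM in MADS63-high and 65.1, 81.0 and 94.2 CPM in MADS63-low libraries, with no overlap (1.00 ± 0.13, adjusted p = 0.000798), while its paralogs COI1A and COI1B did not pass (0.26 and 0.12). The synthesis genes AOS1, AOS2 and AOC did not pass, and OPR7, of a later step, was higher by 0.39 (adjusted p = 0.00501).

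Of 18 sugar transport and sucrose genes, 6 were higher and 3 lower, with a median of 0.29, beside 13.3% higher and 10.8% lower over all genes. Besides MST5, the larger differences among the higher were in the cell wall invertase gene CIN2, the exporter gene SWEET14 and the hexokinase gene HXK5, at 1.07, 1.04 and 1.03. SWEET11, a sucrose exporter needed in pollen and grain, had 34.8, 75.9 and 234 CPM in MADS63-high libraries and 98.0, 232 and 488 CPM in MADS63-low libraries (-1.61 ± 0.29, adjusted p = 0.00321). SUS1, a sucrose synthase gene, had 68.5, 101 and 364 CPM in MADS63-high and 167, 393 and 493 CPM in MADS63-low libraries, lower in 8 of 8 pairs (-1.46 ± 0.26, adjusted p = 0.00326). SUS3, another, differed by -1.43 ± 0.46 (adjusted p = 0.0449) and was lower in 7 of 8 pairs, with the 3.5 h pair the other way. Its MADS63-low libraries held 239 CPM at dawn and 188 CPM at 17.5 h, but 14.8 to 54.8 CPM at the other times. The MADS63-high libraries held 9.01 to 31.0 CPM.

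Of 8 starch synthesis members, 1 was higher and 1 lower, with a median of -0.06, which is near the 13.3% higher and 10.8% lower of all genes. GBSSI, the amylose enzyme of grain and pollen, had 3.62, 11.8 and 104 CPM in MADS63-high and 0.319, 1.62 and 9.95 CPM in MADS63-low libraries (3.11 ± 0.89, adjusted p = 0.0293), with the dawn pair the other way. SSI differed by -0.52 ± 0.15 (adjusted p = 0.0288). Both missed the threshold without the 14 h pair (adjusted p = 0.0821 for GBSSI and 0.0741 for SSI) or the 21 h pair (0.0746 and 0.0796), GBSSI also without the 3.5 h, 10.5 h or dusk pair (0.0556, 0.066 and 0.0519), and SSI without the 17.5 h pair (0.0612). Of 2 starch breakdown genes tested, 1 was called. It was DPE2, of maltose use, higher in 8 of 8 pairs (1.15 ± 0.17, adjusted p = 0.00144), at 206, 422 and 689 CPM in MADS63-high and 142, 176 and 223 CPM in MADS63-low libraries. The amylase gene AMY3D did not pass (-0.77 ± 0.52, adjusted p = 0.314) and was lower in 6 of 8 pairs. GBSSI also stands in the endosperm list, where it was the 1 of 2 tested members called. The other, the storage protein gene GLUA2, did not pass (0.14 ± 0.13, adjusted p = 0.476), and GLUA1, with at most 6 counts, was not tested.

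Water channel genes were called in part. Of 10 plasma membrane aquaporins, 3 were higher and 1 lower, with a median of 0.33, against 13.3% higher and 10.8% lower among all genes. PIP2-3 had 1.42, 6.58 and 13.2 CPM in MADS63-high libraries and 0, 0.364 and 1.88 CPM in MADS63-low libraries (3.67 ± 0.58, adjusted p = 0.00182). PIP2-2 differed by 1.18 ± 0.25 (adjusted p = 0.0071), and PIP1-3 by -0.86 ± 0.20 (adjusted p = 0.0111). Of 6 tonoplast aquaporins, 4 were higher and none lower, with a median of 1.09. TIP5-1 had 4.83, 14.5 and 33.6 CPM in MADS63-high and 0.154, 1.94 and 5.33 CPM in MADS63-low libraries (3.39 ± 0.52, adjusted p = 0.00165). TIP1-2 differed by 2.35 ± 0.39 (adjusted p = 0.00221) and TIP2-2 by 1.26 ± 0.21 (adjusted p = 0.00263).

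In the dehydrin and abscisic acid list 2 of 6 tested members were higher and none lower, with a median of 0.54 and 24.0% of all genes called. Both are abscisic acid breakdown genes. ABA8OX3 had 3.01, 6.91 and 46.6 CPM in MADS63-high and 0.725, 2.43 and 19.2 CPM in MADS63-low libraries, higher in 8 of 8 pairs (1.55 ± 0.19, adjusted p = 0.000798). ABA8OX2 differed by 0.88 ± 0.23 (adjusted p = 0.021), and missed the threshold without the 10.5 h, 14 h or 21 h pair (adjusted p = 0.0579, 0.0535 and 0.0601). The related ABA8OX1 did not pass (1.00 ± 0.44, adjusted p = 0.128), nor did the late embryogenesis gene LEA3 (-0.76 ± 0.29, adjusted p = 0.0857). None of the 3 green tissue genes in use passed, at differences of 0.05 to 0.50. The reference gene GAPDH had medians of 1474 CPM in MADS63-high and 1566 CPM in MADS63-low libraries (-0.04 ± 0.11).

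Of 8 clock genes, 2 were higher and none lower, with a median of 0.23, a share near the 24.0% of all genes called. LHY, which peaks around dawn, had 42.7, 109 and 5113 CPM in MADS63-high and 16.1, 90.3 and 2569 CPM in MADS63-low libraries, a spread across times far wider than that between classes (0.86 ± 0.22, adjusted p = 0.0191). ELF3-1, of the evening complex, differed by 0.40 ± 0.13 (adjusted p = 0.0418). LHY missed the threshold without the 10.5 h or 14 h pair (adjusted p = 0.0543 and 0.0568). ELF3-1 missed it without each pair except the one of 7 h (adjusted p = 0.0502 to 0.106) and with no scaling (adjusted p = 0.238).

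**Figure D4:**
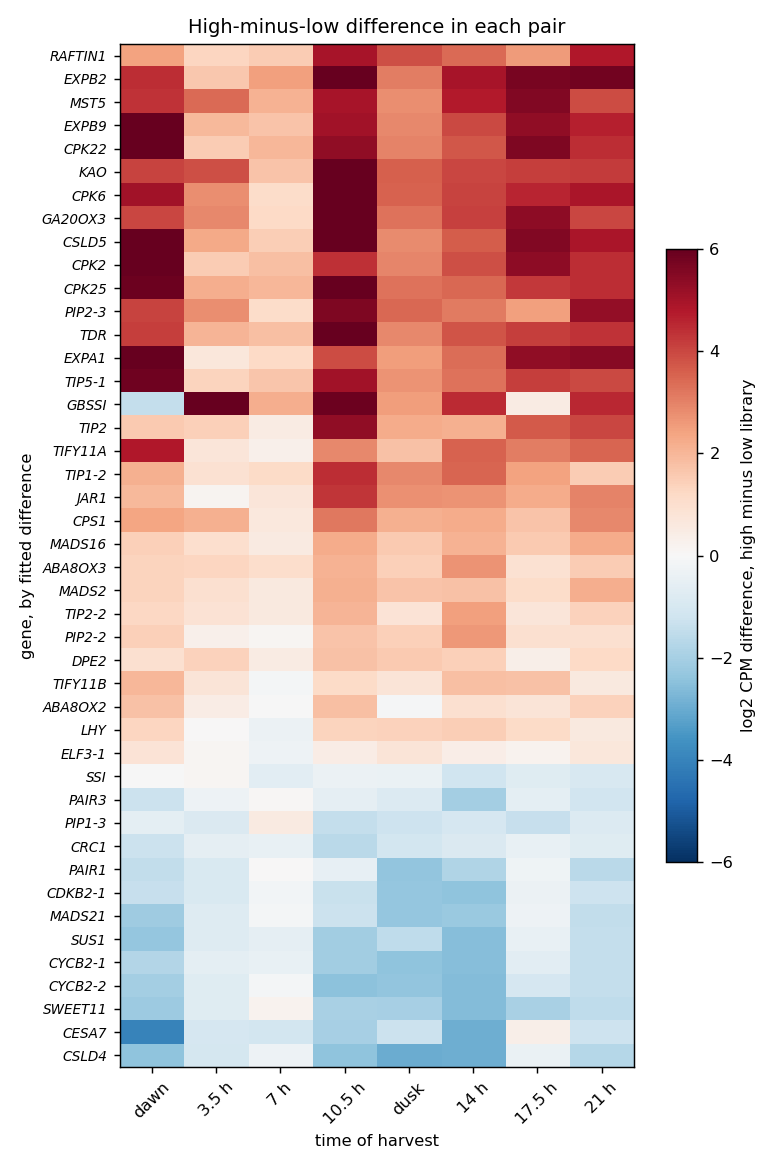
High-minus-low log2 CPM difference of the named genes (rows, ordered by fitted difference) in the pair of each time (columns), with colours clipped at 6 in either direction. The upper rows are red in nearly every pair and palest at 3.5 h and 7 h; GBSSI at dawn and PIP1-3 at 7 h go against their own rows.

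Among genes without a name in the table used, the highest called differences with all 8 pairs one way and at least 1 CPM were in OS10G0345900 and OS12G0420100. OS12G0420100 had 4.94, 12.3 and 250.4 CPM in MADS63-high libraries and 0.0771, 0.337 and 1.13 CPM in MADS63-low libraries (6.02 ± 0.45, adjusted p = 0.000796), and OS10G0345900 had 1.03 to 11.3 CPM in MADS63-high and 0 to 0.214 CPM in MADS63-low libraries (6.13 ± 0.76, adjusted p = 0.000798). The lowest were OS04G0528000, with 0 to 0.466 CPM in MADS63-high and 0.434 to 9.10 CPM in MADS63-low libraries (-4.64 ± 0.97, adjusted p = 0.00721), and OS05G0156900, with 0 to 1.53 CPM in MADS63-high and 0.805 to 24.2 CPM in MADS63-low libraries (-4.46 ± 0.91, adjusted p = 0.00646). With libraries at 0, these fitted values depend on the prior count. For OS04G0528000 and OS05G0156900 the classes overlapped. Their log2 pair differences ran from -6.34 and -6.84 at dawn to -0.61 and -0.01 at 7 h, in that order of genes.

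The 16 libraries between the extremes allow a comparison one step inward. Their classes, second-highest and second-lowest, were set by the same MADS63 ranking, but none of these libraries entered the fit of the extremes. Their MADS63 medians were 1.87 CPM in the second-highest and 0.787 CPM in the second-lowest libraries. The contrast varied by time, in the same order of classes: 2.16 and 0.677 CPM at dawn, but 3.48 and 3.39 CPM at 3.5 h. At 21 h it was 0.639 and 0.472 CPM, on 8 counts each. With classes so close at some times, a gene that missed the threshold here may still differ. Of 25300 genes tested, 3 passed (0.0119%) and 1073 had an unadjusted p under 0.05. The 3, OS06G0655200, OS10G0369900 and OS11G0224600, were higher in the second-highest libraries by 1.44, 1.25 and 1.45 on the log2 scale (adjusted p = 0.0157 for each), and had been higher between the extremes by 5.25, 4.53 and 4.97. Of the genes called higher between the extremes, 2923 of 3464 (84.4%) had the same sign in the inner libraries, with a median of 0.13 there and 1.07 between the extremes. Of those called lower, 2129 of 2826 (75.3%) did, with medians of -0.06 and -0.72. Over all genes tested in both, 63.2% kept one sign.

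**Figure D5:**
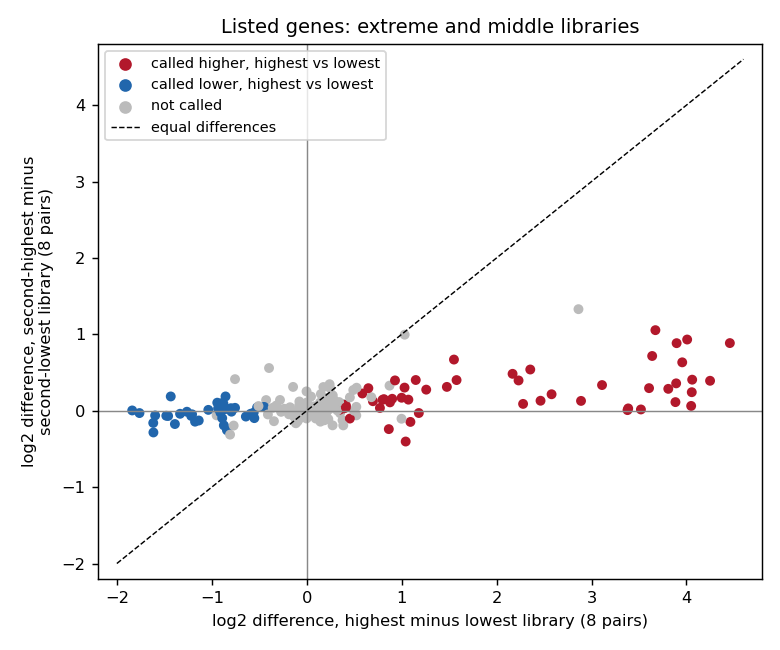
Log2 difference of each listed gene between the highest and lowest MADS63 libraries (x axis) and between the second-highest and second-lowest (y axis), both over 8 pairs; the dashed line marks equal differences. Genes called higher in MADS63-high libraries reach 4.46 on the x axis and far less on the y axis, and those called lower lie near 0 on the y axis.

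By rank, EXPB9 had median levels of 2316, 1407, 1007 and 170.4 CPM from the highest MADS63 library of a time to the lowest, scaled over all 32 libraries. For KAO the medians in that order were 75.0, 43.3, 22.6 and 5.22 CPM, and for MADS16 they were 602, 514, 362 and 175 CPM. For these 3 the largest ratio between neighbours lay between the second-lowest and the lowest library. MCM2 had 19.1, 46.0, 48.0 and 53.2 CPM, where it lay between the highest library and the next. These medians are a description, since MADS63 set the order.

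The difference between MADS63-high and MADS63-low libraries was also compared between the dark pairs (14, 17.5 and 21 h) and the light pairs (3.5, 7 and 10.5 h). No gene of 25935 passed by edgeR's quasi-likelihood test (0%), 957 had an unadjusted p under 0.05, and DESeq2 called 24. With 3 pairs on each side, a p that misses the threshold does not show that the differences were alike by day and night.

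Across all 32 libraries, after each time's mean was removed, the listed genes most like MADS63 were KAO (Pearson r = 0.94), COI2 (0.92), MST5 (0.92), TIP1-2 (0.88) and CPK6 (0.85), on the log2(CPM + 0.1) scale. Those least like it were EXPA16 (-0.77), SWEET11 (-0.75), SUS1 (-0.73), SSIIb (-0.72) and CDKB1-1 (-0.72). These values describe 32 libraries that share their depth with both genes of a pair, and 16 of them are the extremes that MADS63 chose. They were taken from deposited CPM without TMM scaling, where the reference gene GAPDH also had r = -0.59. In the TMM-scaled edgeR fit SSIIb was not called (-0.27 ± 0.12, adjusted p = 0.122).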

How the data were processed

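The submitters' processing notes name HTSeq (version 0.6.0), TopHat2 (version 2) and the genome build IRGSP-1.0. How strand was counted and which gene models were used is not stated there. The authors deposited 2 tables: whole-number gene counts, and CPM values, each of which equals the count over the library total. Of 37829 identifiers, 3564 were at 0 in all 32 libraries.

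Libraries were ranked within each time by deposited CPM of MADS63. The members, lists and tests were chosen with earlier results of these data known. Counts of the 16 libraries were filtered by edgeR's filterByExpr (minimum count 10), scaled by TMM and fitted with the quasi-likelihood test (edgeR 4.0.16, R 4.3.3), with time as the pair and Benjamini-Hochberg adjustment over all genes tested; the script was tested on simulated data. limma 3.58.1 and DESeq2 1.42.0 were alternatives. The inner libraries were fitted alone, and the dark and light pairs by an interaction term.

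The files give identifiers alone. Of 291 symbol and identifier pairs written from general knowledge, 193 matched the RefSeq table (assembly ASM3414082v1) by chromosome and order and were used. Of the others, 85 were not in the table and 13 were elsewhere or ambiguous. MADS63 was named by its identifier alone. Named genes are the mature pollen members in use (3 of 12 written) and, of each other list, up to 3 called members with the largest difference. The genes with the largest differences among all genes, and those most and least like MADS63, are also named. Further genes were picked after their values were seen.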

Additional observations from a re-analysis of the deposited data

Results flagged for a closer look

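Of 52 groups of 4 or 8 values examined for a single value far from the rest, 3 held one, where chance gives about 1 in 20. MADS63 stood far above the other 3 libraries at 10.5 h, where replicate 1 had 22.4 CPM, and at 17.5 h, where replicate 2 had 2.02 CPM. Both are MADS63-high libraries. Without the 10.5 h pair 2613 genes were called higher and 2020 lower, and without the 17.5 h pair 3468 higher and 2474 lower. PIP1-3, an aquaporin gene lower in MADS63-high libraries in 7 of 8 pairs, had a high-minus-low log2 difference of 0.52 at 7 h, the pair with the smallest high-to-low ratio of MADS63.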

How the results depend on the processing

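The call counts, 3531 higher and 2874 lower in MADS63-high libraries, moved most with the libraries chosen. The second-highest against the second-lowest libraries gave 3 higher and 0 lower, and the runner-up libraries where count intervals overlapped gave 5 and 0. All 32 libraries as high, middle and low gave 4938 lower, and log2(MADS63 CPM + 0.1) as a number gave 4659 lower. No scaling gave 6413 lower, and limma-trend, with a median of all genes at -0.18, gave 6813 lower. Without 1 pair in turn, 2489 to 3778 genes were higher and 1584 to 3216 lower, and 38 to 44 of the 44 named genes kept their call. With DESeq2 and with RLE scaling all 44 kept it. Ranking by OS11G0658700, written down as MADS68 but not checked by name, left 40. That ranking chose 5 of the same high and 7 of the same low libraries, so most of the data were shared. The 40 therefore cannot serve as an independent test. The 2 highest against the 2 lowest libraries, which include the MADS63-high and MADS63-low ones, left 30. None of the 44 named genes kept its call with the runner-up libraries or between the second-highest and second-lowest. DESeq2 called 24 genes in the dark against light test, where edgeR called 0. The cause of these shifts was not tested. SSI (0.043), TIFY11B (-0.15), LHY (-0.24), PIP2-2 (-0.030) and PIP1-3 (0.19) changed sign between the second-highest and second-lowest libraries, and TIFY11B (-0.31) with the runner-up libraries. A fit with the replicate block called 1339 higher and 585 lower, and 26 of the 44 named genes kept their call. That fit adds terms for the replicate numbers and so leaves fewer degrees of freedom to estimate the spread. From dawn to 21 h the MADS63-high libraries were replicates 2, 3, 2, 1, 1, 1, 2 and 4. The MADS63-low libraries were replicates 4, 1, 3, 3, 3, 4, 4 and 3, so class and replicate number were not balanced. Deviations of same-numbered libraries correlated by 0.064 on average (-0.822 to 0.783 over 112 pairs), and those of different numbers by -0.017. An average over so wide a range cannot tell whether the numbers stand for anything shared, which was not tested. Libraries with MADS63 at 0 to 18 counts limit how firmly the low class is known.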
